A study of Mus musculus with 5 samples.

Results

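The 7 genes of the Fos and Jun families were examined as DNase I accessible loci in mouse fibroblasts. The members were the accessible sites with a called peak within 50 kb either side of a given mm9 position at Fos, Fosb, Fosl1, Fosl2, Jun, Junb and Jund, and numbered 88 of the 52181 sites of the series. The series mapped accessible chromatin before and after activation of Myc. Its cells were 3T9 fibroblasts, embryonic fibroblasts immortalised by serial passage, derived here from day E13.5 embryos of mixed strain. In all libraries both c-myc alleles were floxed (c-mycflox/flox) and the cells had been infected in vitro with MycER, a Myc protein joined to an estrogen receptor domain, which 4-hydroxytamoxifen (4-OHT) switches on. Whether the floxed alleles had been deleted, and which promoter drives MycER, are not given in the sources used here. All cells grew in DMEM with 10% FBS. The 2 vehicle libraries received ethanol (0 h), the 2 treated libraries 400 nM 4-OHT for 4 h, and 1 further library was sonicated genomic DNA serving as input, whose peaks are not analysed here. For 1 of the treated libraries the 4 h stands only in its title. Nothing in the labels says that the libraries came from separate cultures.

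The 4 deposited peak lists were 3 distinct lists, because 1 list stands under both the second vehicle and the first 4-OHT library. It is called the list under both labels. The other 2 belong to EtOH 0 h replicate 1, called the vehicle list, and to 4-OHT 4 h replicate 2, called the 4-OHT list. Each treatment therefore had 1 list of undisputed label, and no difference between treatments below has a replicate check or a p-value. Treatment and the replicate letter of the titles cannot be told apart. Each peak carries the caller's score, which for MACS is 10 times the negative log10 of a p-value. Scores pile up at a ceiling of 3100. Read depth is unknown, and the vehicle list was the shortest (35149 peaks, against 44956 in the list under both labels and 47621 in the 4-OHT list), so a site missing from a list means only that no peak was called there.

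Fos and Jun proteins are basic leucine zipper (bZIP) transcription factors that pair through their zippers to form AP-1. Fos family proteins (Fos, Fosb, and the Fra proteins encoded by Fosl1 and Fosl2) need a partner, usually a Jun protein, whereas Jun proteins can also pair with each other. AP-1 binds short palindromic motifs of the TGACTCA and TGACGTCA type, and many fibroblast enhancers carry such motifs. Fos, Fosb, Jun and Junb are classical immediate-early genes, which serum growth factors switch on within minutes through factors already bound at their promoters. Myc, with its partner Max, binds the E-box CACGTG.

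The bases upstream of 4 of the starts are shown because a site lay over or near the position of each and because they hold letters related to the AP-1 motif. They are the 150 bases before the annotated start, 5′ to 3′ on the gene's strand, from RefSeq (GRCm38.p6). No coordinates were carried between that build and mm9. Capitals mark TGACG or TGACATCA, the TATA box TATAAA, the GC box GGGCGG on either strand, and the CCAAT box.
Fos: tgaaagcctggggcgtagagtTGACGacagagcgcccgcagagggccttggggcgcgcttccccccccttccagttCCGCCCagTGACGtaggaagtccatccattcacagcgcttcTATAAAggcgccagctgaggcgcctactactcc
Fosb: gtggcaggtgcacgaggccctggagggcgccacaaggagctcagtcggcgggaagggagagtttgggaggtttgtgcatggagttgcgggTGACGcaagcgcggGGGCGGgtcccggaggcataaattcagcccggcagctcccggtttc
Jun: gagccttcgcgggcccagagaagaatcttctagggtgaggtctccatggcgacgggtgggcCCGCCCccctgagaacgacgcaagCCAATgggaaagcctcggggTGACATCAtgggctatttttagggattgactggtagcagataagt
Junb: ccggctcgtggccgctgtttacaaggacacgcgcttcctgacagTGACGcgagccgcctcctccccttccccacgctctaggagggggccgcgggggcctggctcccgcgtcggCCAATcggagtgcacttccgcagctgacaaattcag
The RefSeq table held 6 of the 7 genes, all but Fosl1. Each motif was sought on both strands in the 250 bases before the start. The Jun promoter held TGACATCA at bases 45 to 38 before the start, letters that 2.93% of all 32851 promoters in the table hold. TGACG, the first letters of TGACGTCA, was added to the search after these sequences had been seen. It stood at bases 129 to 125 and 66 to 62 before the Fos start, 60 to 56 before the Fosb start and 106 to 102 before the Junb start, and 17.8% of all promoters hold it. Within those 250 bases none of the 6 promoters held TGACTCA (4.46% of all promoters), TGACGTCA (1.55%), CACGTG (6.02%) or a CArG box (1.47%). Serum response factor binds the CArG box. Bases further upstream were not searched, so a motif lying there would have been missed. TATAAA was found at Fos alone (12.4% of all), GGGCGG at Fos, Fosb, Fosl2 and Jun (32.7%) and CCAAT at Jun and Junb (33.8%). The Fosl2 and Jund promoters held neither TGACG nor TGACATCA. A match is only a match of letters in this window.

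Accessible sites covered the given position at 6 of the 7 genes, in all 3 lists at each of them. At 4 genes, Fosl2, Jun, Junb and Jund, that site stood at the score ceiling in every list, where no difference between lists can be read. Over the whole genome 5.23% of sites stood at the ceiling in every list. The sites here were chosen at genes and those of the genome were not, so that share is a description. The site at Fos was below the ceiling in every list, and the site at Fosl1 in the vehicle list alone. Fosb was the exception, because its given position fell between sites. The plot of score and width shows the site used for each gene.

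**Figure D1:**
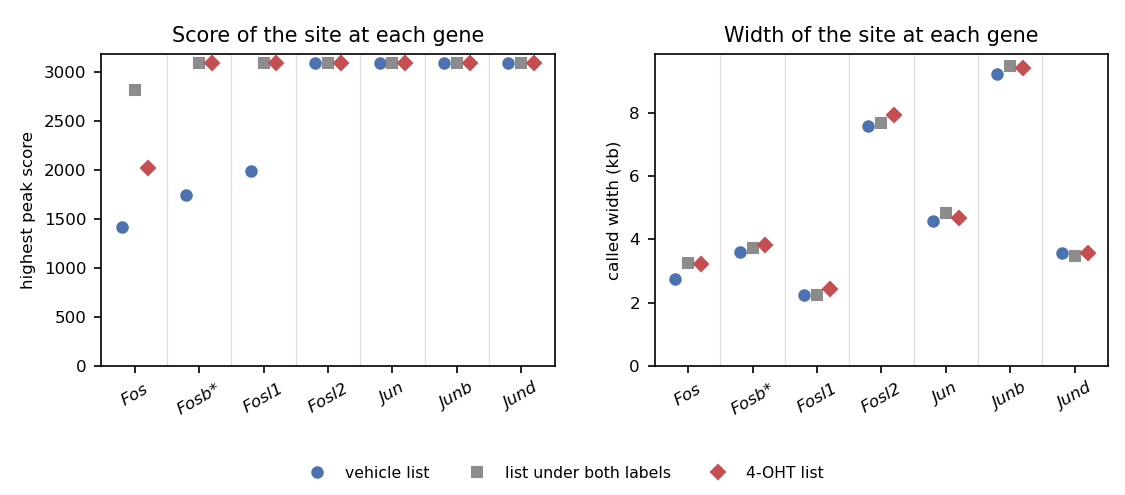
Highest peak score (left, no unit) and summed called width in kb (right) of the site at each gene, 1 symbol per list. The asterisk marks Fosb, where the strongest site within 5 kb is shown in place of the site nearest the position. Scores reach 3100 in all 3 lists at Fosl2, Jun, Junb and Jund, and Junb has the widest site (9232 to 9475 bp).

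Fos encodes the founding member of the family. Its site lay on chromosome 12 from 86812657 to 86815903, reaching 2343 bp to the lower-coordinate side of the position and 903 bp to the higher side. Its peak scored 1418 in the vehicle list, 2821 under both labels and 2025 in the 4-OHT list. The called width was 3247 bp in the list under both labels and 3226 bp in the 4-OHT list. In the vehicle list the same site was called as 2 peaks of 1146 and 1612 bp, and the one over the position scored higher (1418 against 244). Within each list the Fos site stood at the score percentile 78.7, 83.7 and 82.9, in the same order, of all that list's sites. It was thus the weakest by score of the 6 sites over a position, in each list.

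The Fos window had the fewest sites of the 7 when the lists were merged, with 7 sites, 6 of them in every list. Taken singly, the vehicle and 4-OHT lists held 6 and 7 sites at Fos, and fewer (5 and 4) at Fosl2. Apart from the site over the Fos position, 3 of the other Fos sites scored at least 1000 in all lists. The strongest lay 18.6 kb to the lower-coordinate side (chromosome 12, 86795591 to 86797252), with 2914 in the vehicle list and 3100 in both others. A broad site centred 12.9 kb to the higher side (86826384 to 86829405) scored 1558 in the vehicle list, 3100 in the list under both labels and 2222 in the 4-OHT list. It too was 2 peaks in the vehicle list and 1 in each other list. The third, 23.4 kb to the higher side, scored 1385, 2340 and 1883. The 1 site missing from a list was a peak of 496 bp in the 4-OHT list alone, 43.4 kb to the lower side, with a score of 91.4. The next protein-coding genes on the higher side in RefSeq are Jdp2 and Batf, which encode other bZIP proteins that can pair with Jun. Which site lies in which neighbouring gene was not determined.

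Fosb encodes a close relative of Fos that is also induced by growth factors. The given position lay 415 bp from the nearest site, on chromosome 7 from 19888865 to 19889585, a peak of 721 bp in the list under both labels alone with a score of 132. Fosb is read from the minus strand, so its start lies at the higher-coordinate end of the gene. The strongest site within 5 kb of the position lay on that side, from 19892591 to 19896420. It scored 1745 in the vehicle list and 3100 in the other 2 lists. The vehicle list covered 3593 bp of it with 2 peaks, and the list under both labels and the 4-OHT list 3730 and 3812 bp with 1 peak each. Whether it covers the Fosb start was not determined, as no mm9 annotation was used.

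The Fosb window held 14 sites, 11 of them in every list. Its strongest other site was 39.1 kb to the higher side (19926709 to 19931500), at the ceiling in all 3 lists and 4417 to 4792 bp wide. The next, 12.3 kb to the higher side, scored 1559 in the vehicle list and 3100 in both others. One site 33.6 kb to the lower side differed in extent as well as score. It was 2219 bp wide in the vehicle list with a score of 726, against 4194 bp and 2758 in the list under both labels and 4202 bp and 1729 in the 4-OHT list. Of the 3 sites missing from a list, the strongest was 47.0 kb to the lower side, with 163 in the list under both labels and 285 in the 4-OHT list.

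Fosl1 encodes Fra-1, a Fos relative whose gene is itself a target of AP-1 and of growth factor signalling. The site over its position lay on chromosome 19 from 5447055 to 5449486. It scored 1992 in the vehicle list and 3100 in the other lists, and its width was 2238 bp, 2234 bp and 2427 bp in the vehicle, both-label and 4-OHT lists. A second site, from 5444402 to 5446987, ended 67 bp before it by the edges merged over lists. The gap was wider in the vehicle list (5445789 to 5447157) and in the list under both labels (5446407 to 5447055). That neighbour scored 1666 in the vehicle list, 3077 in the list under both labels and 3114 in the 4-OHT list, and its width was 1388 bp, 1968 bp and 2573 bp in the same order. A few peaks exceed the ceiling (285 in the 4-OHT list, 4648 exactly at it), so the neighbour's 3114 and the 3100 at the position are practically tied.

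The Fosl1 window was the most crowded of the 7, with 20 sites, and 13 of them were in every list. Its other sites included 7 that scored at least 1000 in all lists. The site 41.7 kb to the higher side (5487191 to 5492172) was at the ceiling in every list, as 1 peak in the vehicle list and in the list under both labels and as 2 peaks in the 4-OHT list. Sites 23.0 kb and 18.1 kb to the lower side scored 2977 and 2563 in the vehicle list, and 3100 in both other lists. The 7 sites missing from a list all lacked a vehicle peak, as did all but 1 of the 30 such sites of the 7 windows. Of all 52181 sites the vehicle list held 33979, the list under both labels 44275 and the 4-OHT list 46415. The strongest of the 7 at Fosl1, 47.7 kb to the higher side, scored 378 in the list under both labels and 267 in the 4-OHT list. A site 16.0 kb to the higher side had the largest rank change between the vehicle and 4-OHT lists of all the members. It scored 86.1 in the vehicle list, 390 under both labels and 344 in the 4-OHT list. The lowest score in the vehicle list was 80.01, so this site was barely called there.

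Fosl2 encodes Fra-2. Its site was one of the broadest of the family, on chromosome 5 from 32434606 to 32442546, and was a single peak in each list. It measured 7565, 7681 and 7941 bp in the vehicle, both-label and 4-OHT lists, at the width percentile 99.9 in each, and scored 3100 in all 3. Little else of high score lay nearby. None of the other 8 sites in the window scored over 631, the strongest being 47.2 kb to the lower side with 475, 630 and 631. The site over the position made up 53.6% of the called bp of its window's sites in the vehicle list, 38.9% in the list under both labels and 62.6% in the 4-OHT list. Only 4 of the 9 sites were in every list. Another 4 were in the list under both labels alone, with scores of 109 to 190. The remaining site, 10.1 kb to the higher side, was in the vehicle list alone with a score of 86.0, and was the 1 member with a vehicle peak and no 4-OHT peak.

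Jun encodes c-Jun, the most studied partner of Fos. Its site lay on chromosome 4 from 94716195 to 94721041 and scored 3100 in every list. Its width varied little, from 4597 bp (vehicle) over 4670 bp (4-OHT) to 4847 bp (both labels). Gaps of 10985 bp below it and 26820 bp above it held no called peak, so it stood alone at the centre of its window. No other site in the window reached 1000 in all lists. The one with the highest lowest score was 47.4 kb to the higher side, with 454 in the vehicle list, 827 in the list under both labels and 897 in the 4-OHT list. The sites 49.7 kb and 25.2 kb to the lower side scored 430 and 417 in the vehicle list, 1010 and 799 under both labels, and 1024 and 808 in the 4-OHT list. At these 3 sites the vehicle score was the lowest and the other 2 lay close together. Of its 10 sites 6 were in every list, and the strongest of the rest, 30.8 kb to the higher side, scored 355 in the list under both labels and 112 in the 4-OHT list.

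Junb encodes a Jun protein often opposed to c-Jun in growth control. It had the broadest site of the family, on chromosome 8 from 87497534 to 87507095. The vehicle list called 9232 bp of it, the list under both labels 9475 bp in 2 peaks and the 4-OHT list 9400 bp. Within each list this was again the width percentile 99.9. A site of 2493 to 3086 bp (87507561 to 87510646) followed 465 bp further on by the merged edges. That gap was wider in the vehicle list (87506890 to 87507843) and in the list under both labels (87507032 to 87507974). Another site of 2269 to 2803 bp was centred 12.1 kb to the higher side (87512724 to 87515526). All 3 stood at the ceiling in all 3 lists, and the intervals at the ceiling extended further to the higher-coordinate side of the position than to the lower one. Junb is read from the minus strand, and where its start lies among these sites was not determined. On the lower side a site 12.1 kb away scored 2290 in the vehicle list and 3100 in both others. The window held 14 sites, 9 of them in every list. The 5 sites missing from a list scored at most 235, the highest in the list under both labels alone.

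Jund encodes the Jun protein that is expressed most steadily in resting and growing cells. Its site lay on chromosome 8 from 73221736 to 73225373, with only 264 bp on the lower-coordinate side of the position and 3373 bp on the higher side, into which Jund is read. Called widths were 3565, 3489 and 3564 bp in the vehicle, both-label and 4-OHT lists, with the ceiling score in each. A second site began 555 bp further on by the merged edges. It scored 1157 in the vehicle list, 2412 in the list under both labels and 1595 in the 4-OHT list. The site 24.5 kb to the lower side (73196274 to 73198643) was at the ceiling in every list, with a width of 2308 to 2324 bp. Of the 14 sites 9 were in every list. The list under both labels alone held 3 of the rest, the strongest of them with a score of 225.

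**Figure D2:**
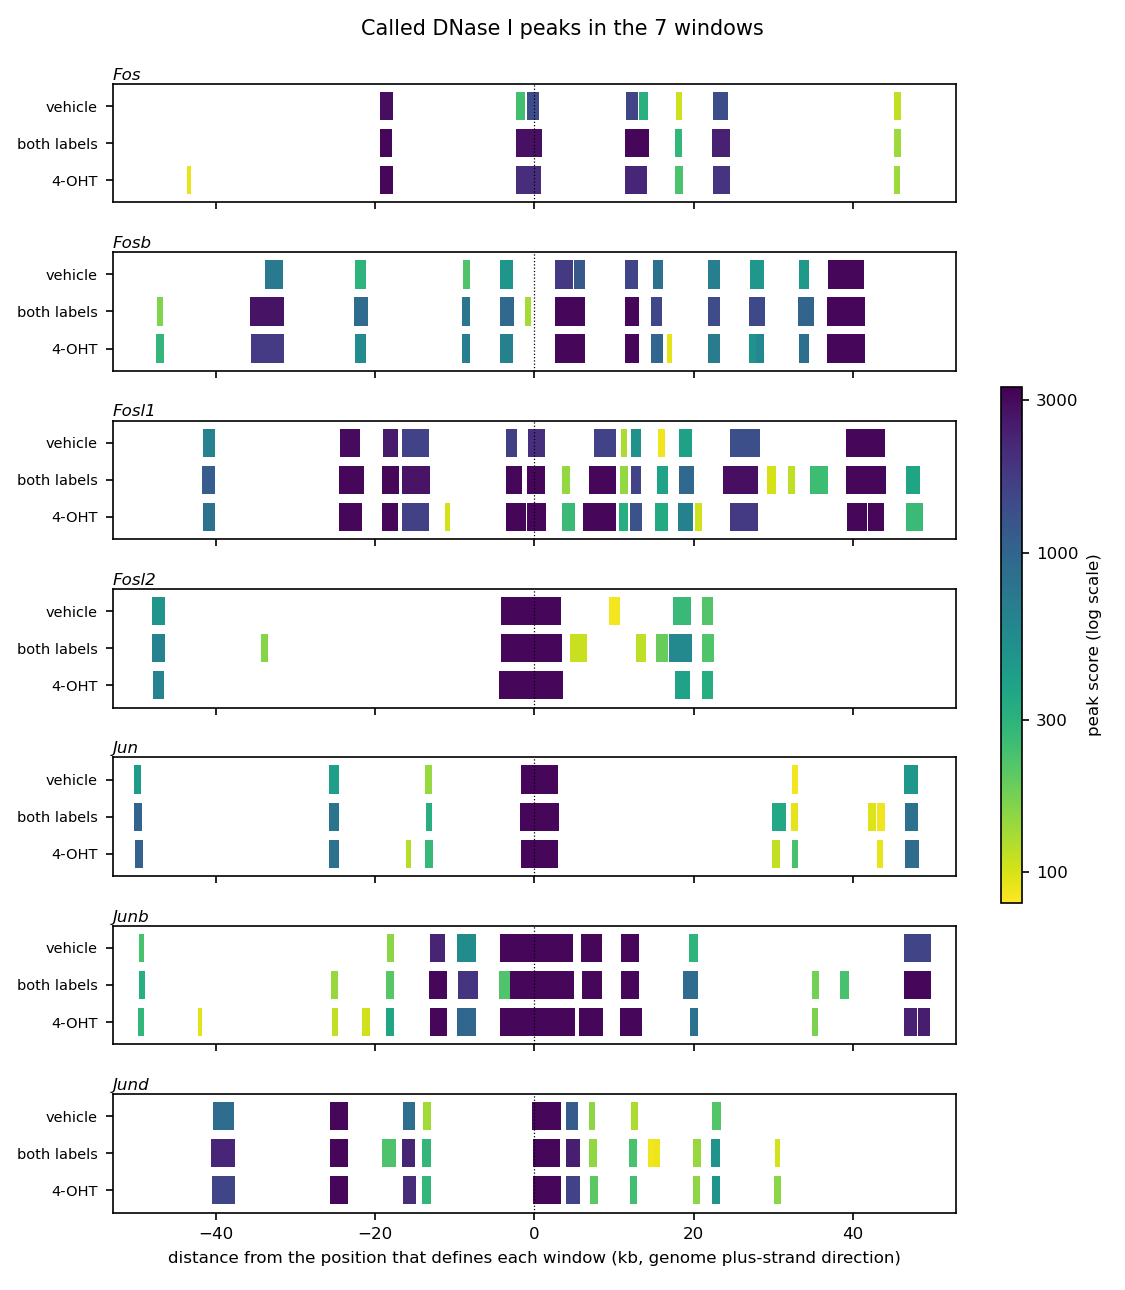
Called peaks in the 7 windows by distance in kb from the position that defines each window (dotted line), 1 row per list, coloured by peak score on a log scale. Broad peaks at the ceiling lie over the line at Fosl2, Jun, Junb and Jund, the Fos peaks over the line are split in the vehicle row, and the peaks that lack a counterpart in another row have scores of at most 378.

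The windows differed in how many sites they held. Counts ran from 7 at Fos and 9 at Fosl2 over 10 at Jun to 14 each at Fosb, Junb and Jund and 20 at Fosl1. Among the 13505 tiles of 100 kb that hold a site, the median count was 3 and the upper quartile 5. Fos stood at the percentile 84.6 of the tiles, Fosl2 at 91.5, Jun at 93.7, Fosb, Junb and Jund at 98.4, and Fosl1 at 99.9. The windows were placed at genes and the tiles were not, so the percentiles are a description. As next genes RefSeq lists Drap1 and AI837181 below Fosl1 and Ccdc85b and Fibp above it, and Rnaseh2a and Prdx2 below Junb and Hook2 and Best2 above it.

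**Figure D3:**
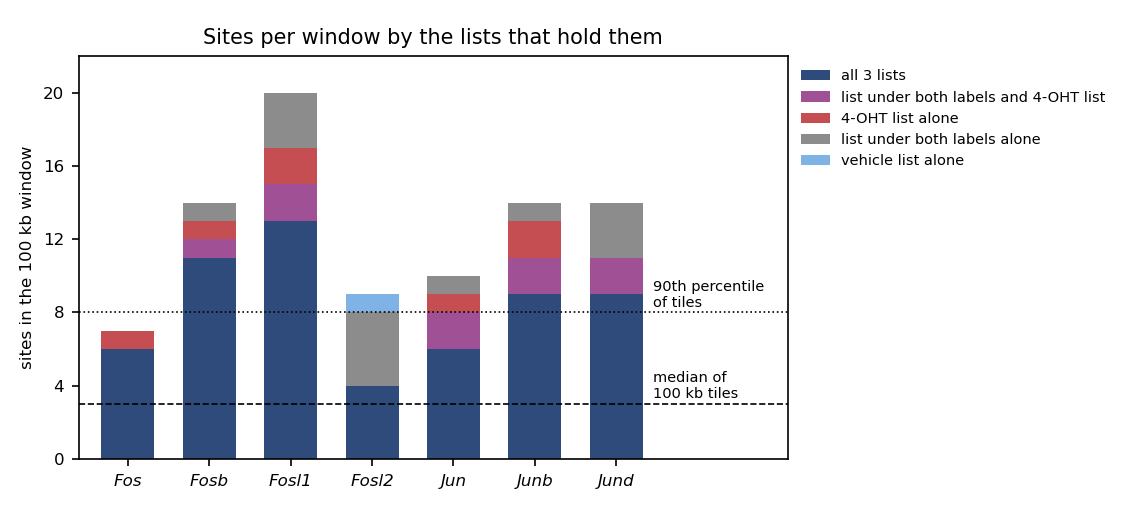
Number of sites in each 100 kb window, stacked by the lists that hold them, with the median (3, dashed) and the 90th percentile (8, dotted) of all 100 kb tiles that hold a site. Fosl1 has 20 sites, Fos 7, and Fosl2 is the 1 window with a site of the vehicle list alone.

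Presence in the lists was set beside that of all sites, with no matching on score. Of the 88 sites 58 were in every list, or 65.9% (Wilson 95% interval 55.5% to 75%), against 61.1% of all sites. The 4-OHT list had 16 sites with no vehicle peak, 21.6% of its 74 (13.8% to 32.3%), against 29.6% over the genome. The vehicle list had 1 site of 59 with no 4-OHT peak, 1.69% (0.300% to 9.0%), against 3.87%. These intervals cover counting error over sites only, and sites of a window are not independent. The 4-OHT score was below 200 at 13 of the 16 (81.2%), near the 86.6% of all 13751 such sites. Member sites scored higher than all sites (4-OHT median 754 against 327). Within classes of low 4-OHT score their share without a vehicle peak was the higher one. It was 4 of 4 at 80 to 100 (86.9% over the genome) and 9 of 10 at 100 to 200 (64.5%). At 200 to 500 it was 3 of 16, 18.8%, against 16.4%. Of the 44 member sites with a 4-OHT score of 500 or more 0 lacked a vehicle peak, which allows a share of up to 6.82% (0.241% over the genome). When each list was held to the length of the vehicle list, the 2 counts were 6 and 2 in place of 16 and 1. With EtOH 0 h replicate 1 left out, so that the list under both labels stood for the vehicle, they were 7 and 13. In these windows the direction of the difference thus turned with the list taken as vehicle. Shares over all sites were not computed under these settings. Over all sites the 4-OHT list held 46415 sites and the list under both labels 44275, against 74 and 80 in the windows. With the list under both labels as vehicle, the direction in the windows was thus not that over all sites. That difference was not tested.

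Scores were lowest in the vehicle list at 48 of the 58 shared sites, and over the genome at 79.3% of shared sites. The median score of the sites in the windows was 681 in the vehicle list, 861 in the list under both labels and 754 in the 4-OHT list, against 342, 371 and 327 over all sites of each list. At the ceiling in every list stood 9 of the 88 sites (10.2%), 3 of them at Junb, 2 at Jund and 1 each at Fosb, Fosl1, Fosl2 and Jun. Fos had none. The 5.23% of all sites given above is the background of that count.

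Because scores depend on depth, sites were also ranked within each list. From the vehicle to the 4-OHT list the percentile was higher by 10 points or more at 28 of the 58 shared sites, against 47.4% of such sites over the genome. It was lower by 10 points or more at 0 of them, which allows a share of up to 5.17%, against 1.70%. The median change was 9.35 points in the windows and 9.31 over the genome. A percentile depends on how many weak sites a list holds, and the 4-OHT list is the longer. Ranked only among the sites present in both lists, a setting added after the values had been seen, 9 member sites were higher by 10 points or more (14.2% of all such sites were) and 2 were lower (12.9% of all). Their median change was then 0.98 points, against −0.54 over the genome.

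By that second ranking the Fos site over the position stood at the percentile 77.9 in the vehicle list and 75.7 in the 4-OHT list, a change of −2.20 points. The Fosl1 site moved from 84.3 to 92.0 and the Fosb site from 81.8 to 92.0, where 92.0 is the rank shared by all sites at the ceiling of the 4-OHT list. The 4 genes at the ceiling in both lists all read 95.5 and 92.0, a step of −3.47 points that the larger number of ties in the 4-OHT list makes. Of the 9 member sites that were higher, 4 were in the Fosl1 window, 3 at Fosb and 1 each at Jun and Junb. The largest change was the 28.88 points of the Fosl1 site centred 16.0 kb to the higher side. Both sites that were lower had modest scores. One was at Fosb, 22.5 kb to the higher side, with a change of −11.35 points and scores of 681 and 699 in the vehicle and 4-OHT lists. The other was at Junb, 49.3 kb to the lower side, with −12.72 points and scores of 236 and 284.

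**Figure D4:**
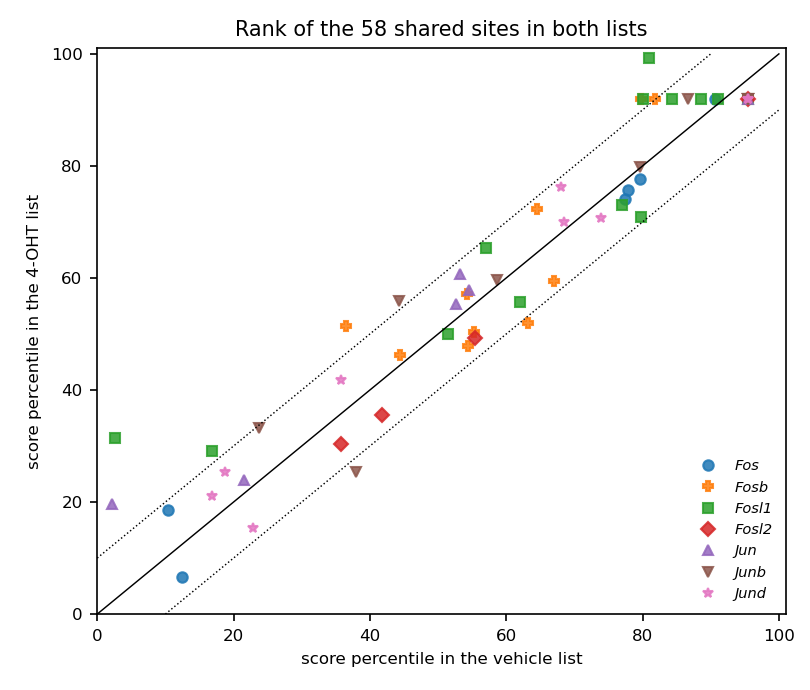
Score percentile of the shared member sites in the vehicle list (x) and in the 4-OHT list (y), each ranked among the sites present in both lists, coloured by gene. The solid line marks equal rank and the dotted lines a difference of 10 points; 9 sites lie above the upper dotted line and 2 below the lower one, and sites at the 4-OHT ceiling line up at 92.0.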

How the data were processed

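DNase-seq libraries of MycER fibroblasts were described by 4 deposited BED lists of peaks, each with a score. Per the submitters' processing notes, BWA 0.6.2, SAMtools and MACS 1.4.1 were used on mm9; settings, use of the input and depth scaling are not given in the sources used here. The score was deposited by the authors without a header; its meaning is taken from the caller's name. Whether peaks were called per library is likewise not given; they were treated so.

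Peaks of the 3 distinct lists were joined into sites by an overlap of at least 1 bp, and a site's score in a list was its highest peak score. The merge was run on 9000 simulated sites, spaced so that neighbours could not overlap, and 100% were recovered. That checks only the code, as neighbouring sites joined by a shared peak were not simulated. The site of a gene was the one over the given position or nearest to it. Named beside it were up to 3 other sites in all lists, by lowest score, and up to 2 missing from a list, by highest score. The strongest site at Fosb and the neighbour at Fosl1, the single sites of Fosl2 and Jund outside that rule, and the sites singled out by width or rank change were chosen after their values were seen. Percentiles are mid-ranks. Window size, a score minimum, list length, the overlap rule, ranking by width or among shared sites, and each library's omission were varied. Members, lists and rules were chosen with earlier results of these data known. Python 3.11.15, numpy 2.4.6, scipy 1.17.1 and matplotlib 3.10.9 were used. Other AP-1 genes were not analysed here, as no mm9 annotation was used. Coordinates count from 1.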

Additional observations from a re-analysis of the deposited data

How the results depend on the processing

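No paired analysis was possible because the results come from no test, and 1 list stands under both labels. With 25 kb either side, 8 sites were in the 4-OHT list and not in the vehicle list and the median percentile change was 10.67 points. With 100 kb either side there were 154 sites, 105 of them in all lists, 29 in the 4-OHT list and not in the vehicle list and 3 the other way, and the median change was 7.83 points. With lists of equal length 6 sites were in the 4-OHT list and not in the vehicle list and 2 the other way, and the median change was 1.35 points (−0.15 over all sites). A score of at least 100 left 0 sites in the vehicle list without a 4-OHT peak. Ranking by width gave a median change of 2.76 points (6.50 over all sites), and ranking among the sites of both lists, added after the data had been seen, 0.98. With single libraries left out there were 81 to 88 sites, 58 to 67 in all remaining lists, 7 to 22 in the 4-OHT list alone of the pair, 1 to 13 in the vehicle list alone, a median change of 2.15 to 9.35 points and 4 to 5 genes with a site at the ceiling in every list. The extremes came without EtOH 0 h replicate 1 or without 4-OHT 4 h replicate 2; leaving out either library of the repeated list changes nothing, as the list remains under its other label. The count of 4 genes at the ceiling was the same with the strongest site within 5 kb. The other alternatives moved the counts by at most 1.5 times and the median by under 1 point. Depth is unknown, so absence from a list is not absence of accessibility. The counts under these alternatives have no share over all sites beside them, so they describe the windows only.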

Other observations

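Several member sites were called as 1 peak in one list and as several in another. Several peaks in at least 1 list were called at 7 of the 88 sites, 7.95% (Wilson 95% interval 3.91% to 15.5%), against 3.82% of all sites. Member sites were wider than all sites, with medians of 1619, 1647 and 1580 bp in the vehicle, both-label and 4-OHT lists. Over all sites these were 1241, 1222 and 1147 bp. The shares were not matched on width, and sites of a window are not independent. The vehicle list was the divided one at both Fos sites and at the strong Fosb site. At the Fosl1 site 41.7 kb to the higher side and at the Fosb site 27.9 kb to the higher side it was the 4-OHT list, and at the Junb site over the position the list under both labels. The Junb site 48.1 kb to the higher side was 2 peaks in both the vehicle and the 4-OHT list and 1 peak in the list under both labels.

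The member sites missing from a list numbered 30. Of these 13 were in the list under both labels alone, 9 in that list and the 4-OHT list, 7 in the 4-OHT list alone and 1 in the vehicle list alone. These classes were not counted over all sites. In the windows the list under both labels had more sites with no vehicle peak (22 of 80) than the 4-OHT list (16 of 74). Over all sites it had fewer, 11786 of 44275 (26.6%) against 13751 of 46415 (29.6%). That difference in order was not tested. No member site was shared by the vehicle list and only 1 other list. Such sites were few over all sites too. There the vehicle list shared 32664 sites with the 4-OHT list and 32489 with the list under both labels, and 31871 were in every list. The highest score among the 30 was 378.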
